A study of Mus musculus with 6 samples.

Results

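The genes described are those of the glutamate and GABA receptors, measured on arrays in mouse hippocampal neurospheres. They were chosen by gene symbol, as every probe set of the deposited table with 1 symbol naming an AMPA, NMDA, kainate or delta subunit, a metabotropic glutamate receptor, a GABA-A subunit or a GABA-B subunit. This gave 43 probe sets of 41 genes, out of 21640 named probe sets of 19937 genes. A gene with several probe sets was represented by the brightest of them, by its mean over the 6 arrays. The 41 genes were 16 of ionotropic glutamate receptors, 7 of metabotropic glutamate receptors, 16 of GABA-A receptors and 2 of GABA-B receptors.

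Primary neurospheres, floating colonies of neural precursor cells and their progeny, were grown from the hippocampus of male C57BL/6J mice aged 8 to 12 weeks, in medium with EGF and bFGF. The sample titles call those on the arrays big neurospheres. The norepinephrine group (3 samples) had 10 µM norepinephrine, a monoamine transmitter, in the medium, and the KCl group (3 samples) had 15 mM KCl, which depolarises excitable cells. Both were collected on day 14, and each sample was run on 1 array. An untreated group was not analysed here, so a difference cannot be assigned to either treatment. The labels call the samples biological replicates without saying whether each was a separate animal or culture, so the p-values reflect no more than the spread among these samples, which may be technical.

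Glutamate and GABA are the main excitatory and inhibitory transmitters of the adult brain. Ionotropic receptors are ion channels built from several subunits, and metabotropic glutamate and GABA-B receptors signal through G proteins. Precursor cells and glia carry some of these receptors too, and in the hippocampal stem cell niche GABA acts on precursors outside synapses, where it affects their division and maturation.

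The deposited log2 expression value of a probe set is called its reading here, and differences are norepinephrine minus KCl. Probe sets differ in brightness for reasons of their sequence, so the brightness of a probe set, given as its percentile among the named probe sets, does not order genes by amount. KCl replicate 1 stood apart, with a standard deviation of 1.38 over the named probe sets, while the 3 norepinephrine arrays had 1.67 to 1.76 and the other KCl arrays 1.78 and 1.62. On it bright probe sets read low and dim ones high. Among the 10 receptor genes above the 70th percentile KCl replicate 1 was the lowest array for 7, and among the 15 below the 30th percentile it was the highest for 11. Over all named probe sets it was the lowest of the 6 arrays in 25.1% and the highest in 51.2%. Of the named probe sets below the 30th percentile 12.7% were higher with norepinephrine on 6 arrays. The share was 33.9% from the 30th to the 70th percentile and 68.6% above the 70th. The receptor classes are therefore also given without KCl replicate 1. Above the 70th percentile were 10 of 14 astrocyte markers, 6 of 10 neural stem cell markers, 6 of 13 neuroblast markers and 6 of 13 oligodendrocyte precursor markers. Of the mature neuron and of the myelinating oligodendrocyte markers 1 each was above it (of 15 and 10), and of the pericyte markers 2 of 8. None of the 11 microglia and 8 endothelium markers was.

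In the receptor genes, the clearest separation was in the GABA-B pair, where Gabbr1 was higher with norepinephrine and Gabbr2 higher with KCl. Gria4 was also higher with KCl. By limma with Benjamini-Hochberg adjustment over all named probe sets, 0 of the 41 genes had an adjusted p under 0.05 (background 0%), and 0.939 was their lowest adjusted p. An unadjusted p under 0.05 was found for 3 genes, Gabbr1 toward norepinephrine and Gabbr2 and Gria4 toward KCl. This was 7.32% of the genes, beside 3.43% of all named probe sets (2.2% toward norepinephrine and 1.24% toward KCl). The 3 readings of one group all lay on one side of the other in 5 genes, or 12.2%, beside 9.13% of all named probe sets (4.36% toward norepinephrine and 4.77% toward KCl). These were Gabbr1, higher with norepinephrine, and Gabbr2, Grin2a, Grm8 and Gabre, higher with KCl.

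The promoters of the 3 genes at an unadjusted p under 0.05 are shown, since 2 of them encode the partners of 1 receptor. None of the 3 passed after adjustment. Each stretch holds 250 bases before and 50 after the gene's start in RefSeq (GRCm38.p6), and capitals mark the GC box, GGGCGG or its complement CCGCCC. Gabbr1 lies at chr17:37045716-37046015 on the plus strand, Gabbr2 at chr4:46991665-46991964 on the minus strand and Gria4 at chr9:4796185-4796484 on the minus strand.
Gabbr1: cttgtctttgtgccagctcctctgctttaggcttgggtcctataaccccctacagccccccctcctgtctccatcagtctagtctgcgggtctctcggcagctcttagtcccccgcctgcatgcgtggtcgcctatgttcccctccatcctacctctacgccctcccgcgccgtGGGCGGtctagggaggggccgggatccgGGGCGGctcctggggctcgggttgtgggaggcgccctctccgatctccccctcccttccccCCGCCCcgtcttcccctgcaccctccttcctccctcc
Gabbr2: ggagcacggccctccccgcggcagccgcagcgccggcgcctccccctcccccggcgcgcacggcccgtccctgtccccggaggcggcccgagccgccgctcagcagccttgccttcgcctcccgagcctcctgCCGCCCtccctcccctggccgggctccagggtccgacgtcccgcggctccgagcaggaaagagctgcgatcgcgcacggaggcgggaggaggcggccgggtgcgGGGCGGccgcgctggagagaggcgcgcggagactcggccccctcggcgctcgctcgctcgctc
Gria4: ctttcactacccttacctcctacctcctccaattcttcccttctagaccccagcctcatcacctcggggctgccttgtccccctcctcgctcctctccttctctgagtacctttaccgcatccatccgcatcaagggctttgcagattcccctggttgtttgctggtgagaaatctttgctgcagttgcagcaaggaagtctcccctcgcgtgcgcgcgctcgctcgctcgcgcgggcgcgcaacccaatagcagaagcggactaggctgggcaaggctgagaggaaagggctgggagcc
The Gabbr1 stretch held 3 GC boxes and had 67.3% G and C, and the Gabbr2 stretch held 2 and had 80.3%. The Gria4 stretch held none and had 59.7%, where the median RefSeq promoter had 52.7%. Of the 38 RefSeq promoters found for 31 of the 41 genes, 47.4% held a GC box on either strand, beside 35.7% of all 32851. The cAMP response element, TGACGTCA, which reads the same on both strands, was in 0 of the 38 and in 1.79% of all. Its half-site, TGACG on either strand, which is part of the full element, was in 10.5% of the 38, beside 20.8% of all, and in none of the 3 printed here. TATAAA on either strand was in 10.5% of the 38 and in 13.6% of all.

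Functional GABA-B receptors are dimers of the products of Gabbr1, which binds GABA, and Gabbr2, which carries the complex to the surface and couples it to G proteins. Gabbr1 (probe set 10445078) read 9.69, 9.39 and 9.91 with norepinephrine and 8.64, 8.61 and 8.97 with KCl. All 3 norepinephrine arrays lay above all 3 KCl arrays. The difference was 0.92 ± 0.21 (log2 ± SE, n = 3 per group), or 1.90-fold higher with norepinephrine, with a 95% interval of 0.44 to 1.41 (adjusted p = 0.939 by limma).

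Gabbr2 (probe set 10512807) read 7.47, 7.31 and 7.48 with norepinephrine and 8.07, 7.73 and 8.17 with KCl. Here every norepinephrine array lay below every KCl array. The difference was -0.57 ± 0.20, or 1.49-fold higher with KCl, with a 95% interval of -1.02 to -0.13 (adjusted p = 0.939 by limma). Without KCl replicate 1 the differences were 0.87 for Gabbr1 and -0.53 for Gabbr2, close to those on 6 arrays.

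The reading of Gabbr2 was also subtracted from that of Gabbr1 on each array. This gave 2.22, 2.08 and 2.44 with norepinephrine and 0.57, 0.88 and 0.79 with KCl. The groups lay apart by more than the range within either, with means of 2.25 ± 0.18 and 0.75 ± 0.16 (SD, n = 3 each). The difference of the means was 1.5, and 1.41 without KCl replicate 1. The subtraction removes a shift that both probe sets share, but not one that depends on brightness, and they lay at the 89.0th (Gabbr1) and 64.4th (Gabbr2) percentile. The values give no ratio of transcripts. As each gene alone held the groups apart, in opposite directions, the subtracted readings had to separate them and add no further support. The pair was singled out after its values were seen, so no test is given.

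**Figure D1:**
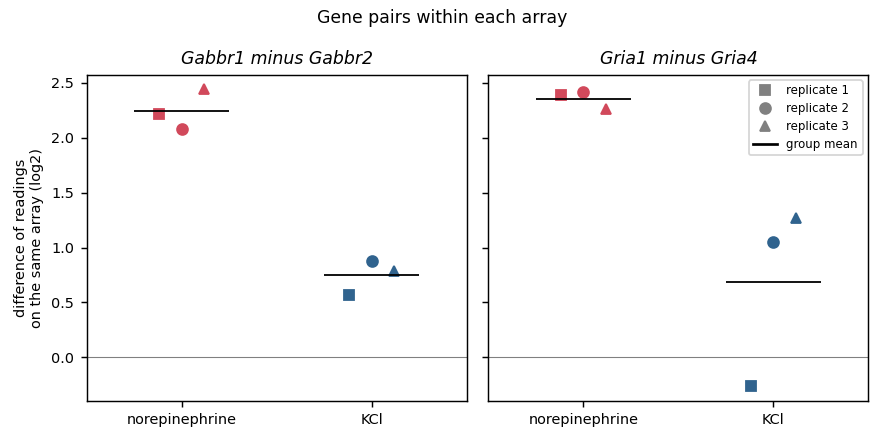
Readings of Gabbr1 minus Gabbr2 (left) and of Gria1 minus Gria4 (right) on the same array, on a log2 axis, with 1 marker per array and a line at each group mean. In both panels the 3 norepinephrine arrays lie above the 3 KCl arrays, and KCl replicate 1 is the lowest array. Both pairs were chosen after their values were seen.

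AMPA receptors are assembled from the products of Gria1 to Gria4 and carry most fast excitation, and the subunit from Gria2 keeps calcium out of the channel. Gria1 (probe set 10376245) read 9.70, 10.43 and 9.71 with norepinephrine and 7.82, 9.75 and 9.24 with KCl. KCl replicate 1 was far below the other 5 arrays, and KCl replicate 2 lay between norepinephrine arrays, so the groups overlapped. The difference of 1.02 ± 0.46 was the largest of the 41 genes in either direction, with a 95% interval of -0.025 to 2.06 (adjusted p = 0.939 by limma). It was 0.46 without KCl replicate 1.

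Gria4 (probe set 10590663) read 7.31, 8.01 and 7.46 with norepinephrine and 8.07, 8.70 and 7.96 with KCl. Norepinephrine replicate 2 reached into the KCl range and the other norepinephrine arrays lay below it. The difference was -0.65 ± 0.27, or 1.57-fold higher with KCl, with a 95% interval of -1.27 to -0.04 (adjusted p = 0.939 by limma). It was -0.74 without KCl replicate 1. After each array was centred on its median the unadjusted p of Gria4 was no longer under 0.05.

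Gria2 and Gria3 were among the brightest probe sets of the table, at the 97.5th and 96.6th percentile. Gria2 read 10.31, 11.02 and 10.57 with norepinephrine and 9.91, 11.52 and 10.50 with KCl, and Gria3 read 10.32, 10.81 and 10.05 with norepinephrine and 9.15, 11.20 and 10.72 with KCl. For both genes the KCl arrays spread wider than the norepinephrine arrays and enclosed them. The differences were -0.01 ± 0.39 and 0.04 ± 0.48, with 95% intervals of -0.89 to 0.87 and -1.05 to 1.13. Without KCl replicate 1 they were -0.38 and -0.57, and Gria3 thereby changed sides.

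Within arrays, the reading of Gria1 minus that of Gria4 was 2.39, 2.42 and 2.26 with norepinephrine and -0.26, 1.05 and 1.27 with KCl. The norepinephrine arrays were close together and all lay above the KCl arrays. The difference of the group means was 1.67, and 1.19 without KCl replicate 1. This pair too was taken after its values were seen, with no test. It joins the largest differences of the 41 genes in each direction, which favours a separation.

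**Figure D2:**
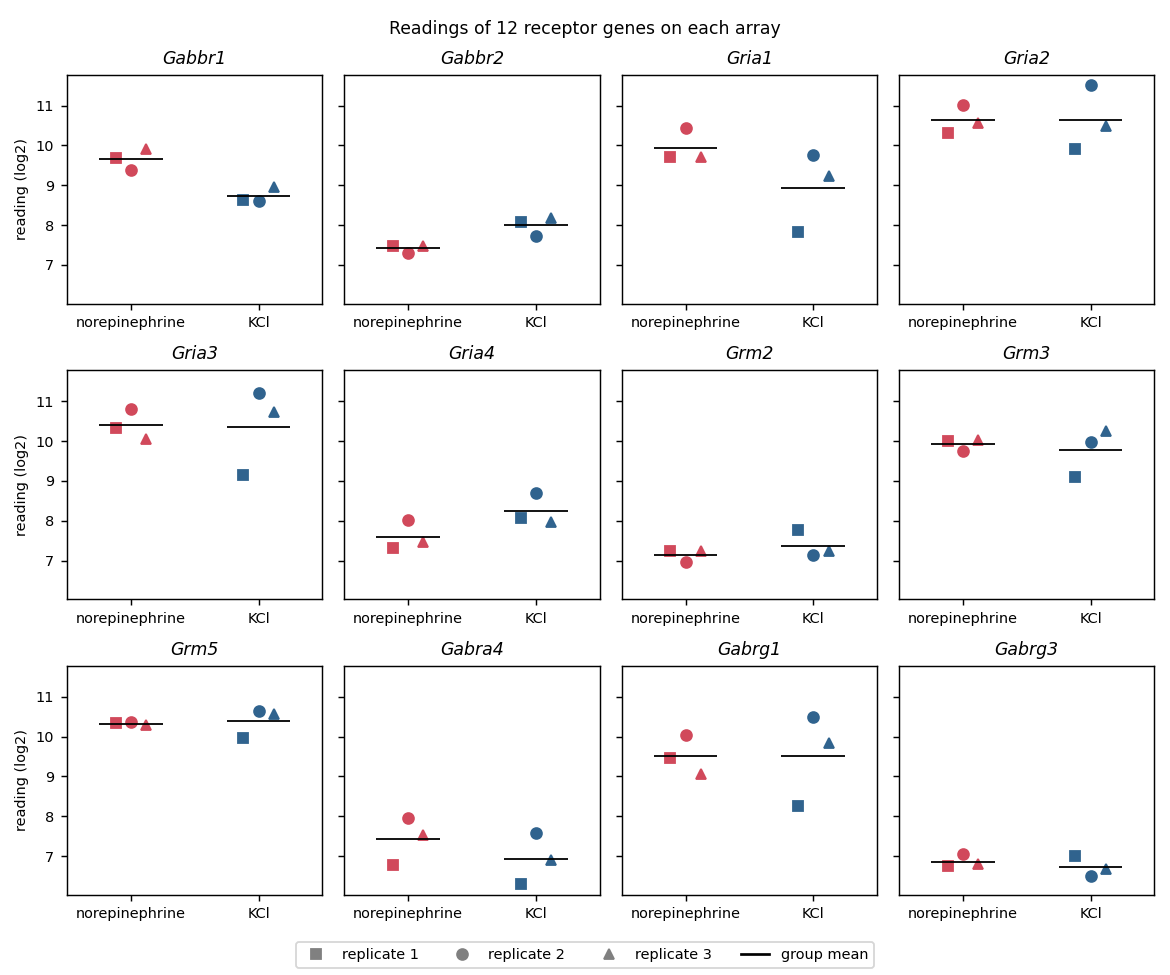
Log2 readings of 12 receptor genes on each array, with 1 marker per replicate, norepinephrine left of KCl, and a line at the group mean. Gabbr1 and Gabbr2 separate the groups in opposite directions, while for Gria1, Gria2, Gria3, Gabrg1, Grm3 and Grm5 KCl replicate 1 is the lowest array.

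NMDA receptors need both glutamate and a glycine-site agonist and pass calcium. Of the 6 measured genes, 1 was higher with norepinephrine and 5 with KCl (Grin2d changed sides after quantile normalization). Of all named probe sets 38% were higher with norepinephrine. The share was 33.9% at the 30th to 70th percentile, where the median gene of this class lay (43.7th). The median difference of the 6 genes was -0.25, and none of them had an unadjusted p under 0.05. The median was -0.08 without KCl replicate 1, with 2 genes higher with norepinephrine. Grin2a, a glutamate-binding subunit, read 7.03, 7.33 and 7.01 with norepinephrine and 7.39, 7.70 and 7.43 with KCl. The groups did not overlap, and the difference was -0.38 ± 0.20, with a 95% interval of -0.83 to 0.06. Grin3a, a glycine-binding subunit that lowers calcium flow, read 7.70, 8.19 and 8.10 with norepinephrine and 7.82, 8.50 and 8.60 with KCl. The difference was -0.31 ± 0.26, and -0.55 without KCl replicate 1, where the groups were apart. Grin2b, the subunit of early development, differed by 0.17 ± 0.23, and by 0.38 without that array. Grin2c, Grin2d and Grin3b differed by -0.18, -0.07 and -0.33, or by -0.00026, 0.16 and -0.17 without it.

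All 5 measured kainate receptor genes were on the norepinephrine side, also after quantile normalization or centring. This was beside 38% of all named probe sets, and 33.9% at the 30th to 70th percentile, where the median gene of this class lay (42.8th). Grik1 and Grik4 changed sides when some single arrays were left out. The differences of the 5 genes were small, from 0.056 to 0.29 with a median of 0.14, and none had an unadjusted p under 0.05. Grik1, Grik2 and Grik3 encode subunits that form channels alone, and differed by 0.08, 0.29 and 0.14. Grik4 and Grik5 encode high-affinity subunits that need one of those as a partner, and differed by 0.06 and 0.27. Without KCl replicate 1 the class median was 0.17 and all 5 were still on the norepinephrine side, with Grik5 at 0.49 and Grik2 at 0.02. Grik2 and Grik5, with the largest differences of the 5, lay above the 70th percentile, where 68.6% of all named probe sets were higher with norepinephrine. Grik1 and Grik3 lay below the 30th percentile, where 12.7% were. The delta receptor gene Grid1, whose product binds cerebellins at synapses, differed by 0.03 ± 0.18.

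Metabotropic glutamate receptors fall into group I, which activates phospholipase C, and groups II and III, which lower cAMP. Of the 7 measured genes, 1 (Grm3, which changed sides after quantile normalization) was higher with norepinephrine and 6 with KCl, beside the same 38% of all. The share was 33.9% at the 30th to 70th percentile, where the median gene of this class lay (39.5th). The median difference of the 7 genes was -0.23, and -0.04 without KCl replicate 1. None of them had an unadjusted p under 0.05. Grm5, the measured gene of group I and a receptor of young astrocytes and neurons, read 10.33, 10.36 and 10.28 with norepinephrine and 9.97, 10.65 and 10.57 with KCl. The norepinephrine arrays agreed within 0.1, and the KCl arrays lay on both sides of them. The difference was -0.08 ± 0.22, with a 95% interval of -0.58 to 0.43.

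In group II, Grm3, a receptor of astrocytes and neurons, read 10.00, 9.74 and 10.02 with norepinephrine and 9.10, 9.98 and 10.24 with KCl. The groups overlapped, and the difference of 0.15 ± 0.30 was -0.19 without KCl replicate 1. Grm2, found mainly at presynaptic sites, read 7.24, 6.96 and 7.25 with norepinephrine and 7.76, 7.13 and 7.24 with KCl. KCl replicate 1 was the array that stood above the rest, and the difference was -0.23 ± 0.22, or -0.04 without it. The 4 genes of group III differed by -0.10 (Grm4), -0.29 (Grm6, the receptor of retinal bipolar cells), -0.23 (Grm7) and -0.25 (Grm8). They were closer to 0 without KCl replicate 1, at 0.06, -0.03, -0.03 and -0.17. Grm8 read 5.35, 5.34 and 5.36 with norepinephrine and 5.77, 5.49 and 5.56 with KCl, which placed the groups apart at a reading as dim as the 12.3rd percentile.

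GABA-A receptors are chloride channels of 5 subunits, most often alpha, beta and gamma. In the 16 measured genes 5 were higher with norepinephrine and 11 with KCl, with a median of -0.11, beside -0.075 for all named probe sets. None had an unadjusted p under 0.05. Without KCl replicate 1 the count was 11 higher with norepinephrine and the median 0.04, so the side on which most of this class lay changed. The same held for all named probe sets, of which 38% were higher with norepinephrine on 6 arrays. Without KCl replicate 1 that share was 52.2% and their median 0.008. Of the 16 genes, 9 were below the 30th percentile and 1, Gabrg1, was above the 70th. Among all named probe sets below the 30th percentile 12.7% were higher with norepinephrine on 6 arrays, at a median of -0.18.

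Gabrg1 encodes a gamma subunit found in glia as well as neurons. It read 9.47, 10.04 and 9.05 with norepinephrine and 8.25, 10.48 and 9.84 with KCl. The KCl arrays held both the lowest and the highest reading. The difference was -0.004 ± 0.52, the least precise of the 41, with a 95% interval of -1.18 to 1.18, and it was -0.64 without KCl replicate 1. Gabrg3, another gamma subunit, read 6.75, 7.05 and 6.79 with norepinephrine and 7.0, 6.51 and 6.67 with KCl, with overlapping groups and a difference of 0.13 ± 0.21.

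Among the alpha subunits, which shape the response to GABA and benzodiazepines, Gabra4 read 6.77, 7.95 and 7.54 with norepinephrine and 6.29, 7.58 and 6.90 with KCl. The groups overlapped, and the difference was 0.50 ± 0.38, or 0.18 without KCl replicate 1. The others were Gabra2 at -0.35, Gabra3 at 0.23, Gabra5 at -0.06 and Gabra6 at -0.21. Without that array they were at -0.23, 0.06, 0.09 and 0.0025, so that Gabra5 and Gabra6 changed sides. Of the beta subunits, which help form the GABA site, Gabrb1 differed by 0.51 ± 0.25, with a 95% interval of -0.06 to 1.08, and by 0.28 without KCl replicate 1. Gabrb2 had 3 probe sets, which differed by 0.12, 0.21 and -0.10. The delta subunit gene Gabrd, of receptors outside synapses, differed by -0.11, or by 0.11 without KCl replicate 1. Gabre, Gabrp and Gabrq, for the epsilon, pi and theta subunits, differed by -0.22, -0.22 and -0.34, or by -0.22, 0.02 and -0.27 without it. The rho subunit genes Gabrr1, Gabrr2 and Gabrr3, best known from the retina, differed by -0.11, -0.15 and -0.40, or by 0.01, 0.15 and -0.06 without KCl replicate 1.

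Many GABA-A genes neighbour each other in the genome, by the RefSeq table. The 4 on chromosome 5, Gabrg1, Gabra2, Gabra4 and Gabrb1, did not share a direction, as 2 were higher with norepinephrine and 2 with KCl. Likewise the pairs on chromosome 7 (Gabrg3 and Gabra5) and on chromosome 11 (Gabra6 and Gabrb2) each had 1 gene on either side. On chromosome X, Gabre and Gabrq were higher with KCl and Gabra3 with norepinephrine, and on chromosome 4 Gabrr1 and Gabrr2 were both higher with KCl. When KCl replicate 1 was left out, both genes of the pairs on chromosomes 4, 7 and 11 lay toward norepinephrine, while the counts on chromosomes 5 and X were as before. None of these genes had an unadjusted p under 0.05 in either fit.

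**Figure D3:**
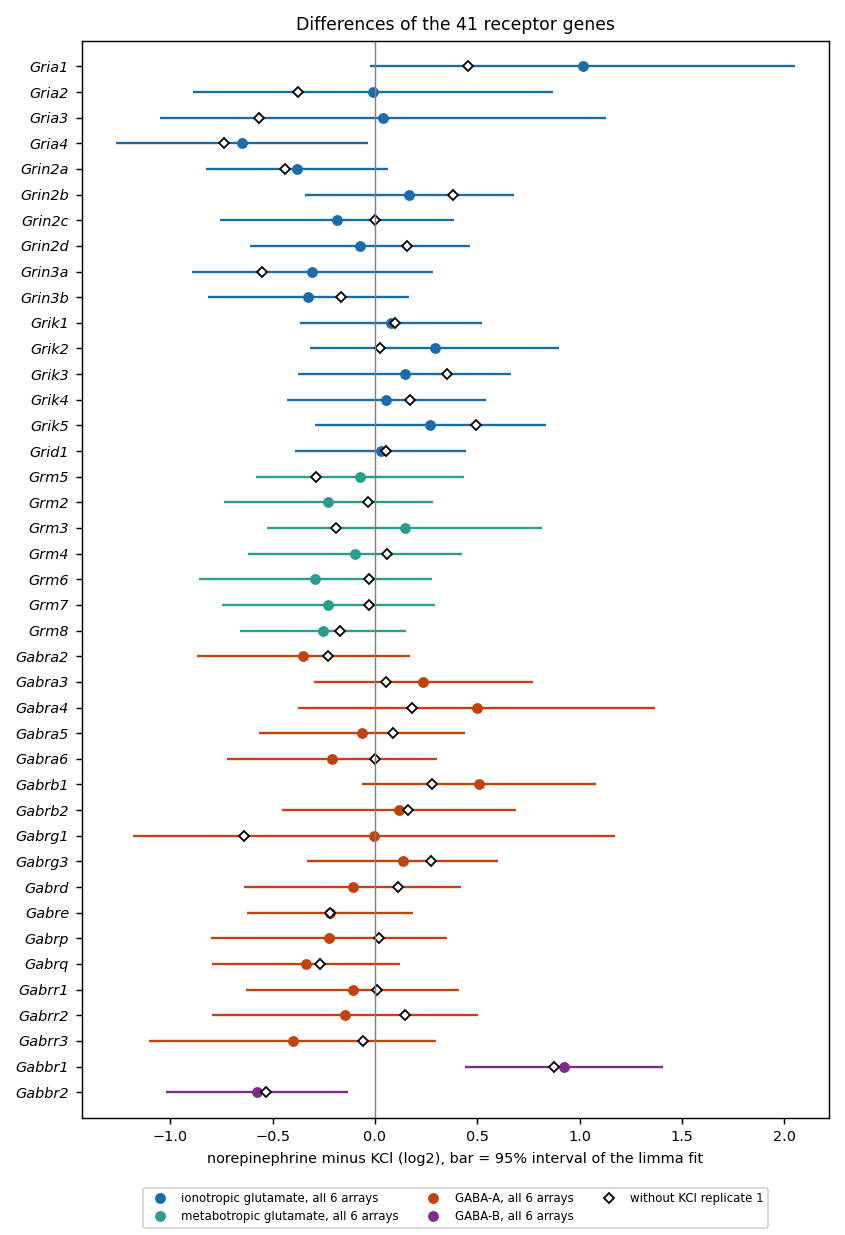
Norepinephrine minus KCl (log2) for the 41 receptor genes by class, with 95% intervals of the limma fit, and open diamonds for the difference without KCl replicate 1. The intervals of Gabbr1, Gabbr2 and Gria4 leave out 0, and those of the other 38 genes include it.

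Precision set what could be told for the other genes. Standard errors ran from 0.18 to 0.52, and 38 of the 41 intervals included 0. For 32 genes the whole interval lay within a 2-fold difference either way, and for 9 it reached beyond. Over all 41 genes 16 were higher with norepinephrine and 25 with KCl, and the median was -0.075, as for all named probe sets (-0.075).

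Without KCl replicate 1, 22 of the 41 genes lay toward norepinephrine, beside 52.2% of all named probe sets, with a median of 0.01, as for all named probe sets (0.008). In that fit 8 genes, or 19.5%, had an unadjusted p under 0.05, beside 4.63% of all named probe sets, and none passed after adjustment (background 0.0185%). They were Gabbr1, Grik5 and Grin2b toward norepinephrine (background 2.38%) and Gabbr2, Gria3, Gria4, Grin2a and Grin3a toward KCl (background 2.25%). Of these 8, 6 encode ionotropic glutamate receptor subunits, a class that made up 16 of the 41 genes. The groups were apart in 11 genes, or 26.8%, beside 16.2% of all. Without KCl replicate 2 there were also 8 genes at an unadjusted p under 0.05, beside 16.3% of all, and they were Gabbr1, Gabra4, Gabrb1, Gria1 and Grik2 toward norepinephrine and Gabbr2, Gabrr3 and Grin3b toward KCl. Gabbr1 and Gabbr2 were the genes in both sets. The ionotropic glutamate receptor genes of the second set, Gria1, Grik2 and Grin3b, were not in the first.

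**Figure D4:**
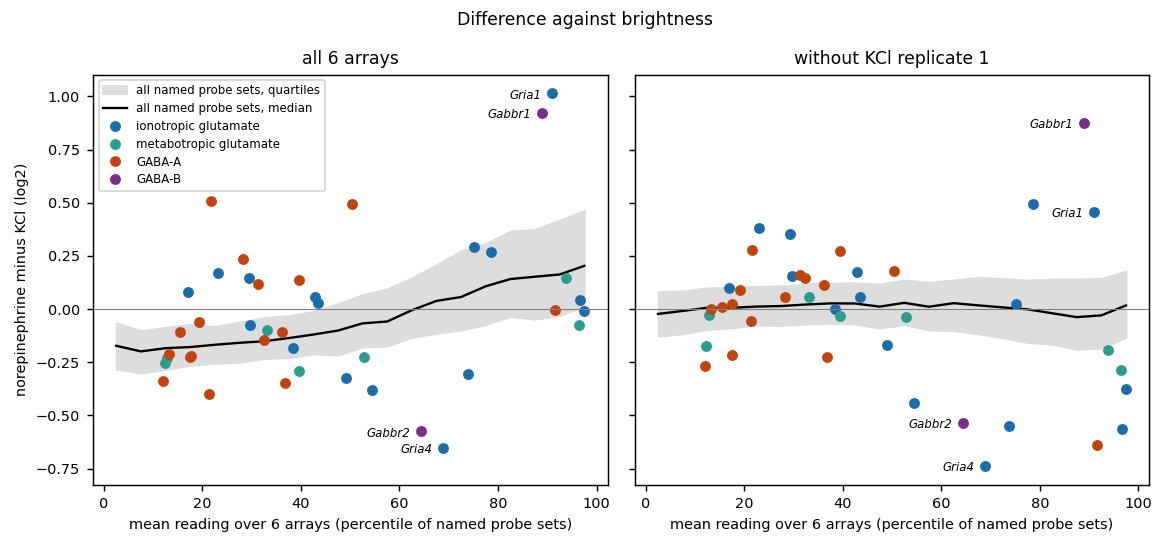
Norepinephrine minus KCl (log2) of each receptor gene against the brightness percentile of its probe set, on all 6 arrays (left) and without KCl replicate 1 (right), with the median (line) and quartiles (band) of all named probe sets. The slope of the background on 6 arrays is absent on 5, while Gabbr1, at 0.92 and 0.87, lies far above the band in both.

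The partners of these receptors were read in 5 lists. Of 31 genes for auxiliary subunits and scaffolds of glutamate receptors, 11 (35.5%) lay toward norepinephrine, near the 38% of all named probe sets, at a median of -0.13 (0.025 without KCl replicate 1). An unadjusted p under 0.05 was found for 2, or 6.45%, beside 3.43% of all. Pick1, a protein that binds AMPA subunits and governs their trafficking, read 9.15, 8.78 and 9.16 with norepinephrine and 8.37, 8.28 and 8.15 with KCl. The groups were apart, and the difference was 0.76 ± 0.19 (adjusted p = 0.939 by limma). Cacng7, an AMPA receptor auxiliary subunit, read 9.96, 9.93 and 9.89 with norepinephrine and 8.86, 9.26 and 9.80 with KCl, a difference of 0.62 ± 0.25 that was 0.40 without KCl replicate 1.

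Of 14 scaffold and partner genes of GABA receptors, 6 (42.9%, beside 38% of all) lay toward norepinephrine, at a median of -0.07 (0.003 without KCl replicate 1). The 1 at an unadjusted p under 0.05 (7.14%, beside 3.43% of all) was Plcl1, a phospholipase-like protein that binds GABA-A receptors, at -0.60 ± 0.26. Its readings were 7.05, 7.52 and 6.94 with norepinephrine and 7.38, 8.16 and 7.77 with KCl, and the groups overlapped. In glutamate transport and metabolism 10 of 17 genes (58.8%, beside 38% of all) lay toward norepinephrine, at a median of 0.19 (0.13 without KCl replicate 1). Of these 17 genes 2 had an unadjusted p under 0.05 (11.8%, beside 3.43% of all). The list was bright, with its median gene at the 89.6th percentile. Of all named probe sets above the 70th percentile 68.6% lay toward norepinephrine, and 5.47% had an unadjusted p under 0.05. Slc1a2, the main glutamate transporter of astrocytes, differed by 0.61 ± 0.24, and Glud1, the enzyme glutamate dehydrogenase, by 0.89 ± 0.38, or by 0.41 and 0.49 without KCl replicate 1. GABA transport and metabolism (10 genes) and glycine receptors (5 genes) had medians of 0.003 and -0.03 (0.10 and 0.025 without KCl replicate 1), with none at an unadjusted p under 0.05. No gene of the 5 lists passed after adjustment.

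Markers of cell types moved with the treatments to different degrees. Of 14 astrocyte markers, 8 had an unadjusted p under 0.05 (57.1%, beside 3.43% of all named probe sets), all higher with norepinephrine. This list too was bright, with its median marker at the 88.3rd percentile. Of all named probe sets above the 70th percentile 5.47% were at that p, and 68.6% lay toward norepinephrine. The mean reading of the list was 9.33 to 9.37 with norepinephrine and 8.46 to 8.81 with KCl. Gfap, the astrocyte filament, differed by 1.89 ± 0.30 and the lipid carrier Apoe by 1.20 ± 0.21. Oligodendrocyte precursor markers, of which 2 of 13 were at that p, had list means of 8.19 to 8.31 with norepinephrine and 7.96 to 8.17 with KCl, with Gpr17 at 0.70 ± 0.25 and Pdgfra at 0.66 ± 0.24. Neuroblast markers (3 of 13, with Gap43 at 0.58, Tubb3 at 0.47 and, toward KCl, Cd24a at -0.45) had means of 8.06 to 8.13 with norepinephrine and 7.85 to 8.00 with KCl.

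Mature neuron markers (1 of 15, Snap25 at 1.03 ± 0.27) had overlapping means, 6.97 to 7.13 with norepinephrine and 6.86 to 7.16 with KCl. Neural stem cell markers (2 of 10, Hopx at 0.87 and Prom1 at 0.60) had means of 9.07 to 9.18 with norepinephrine and 8.80 to 8.98 with KCl. Myelinating oligodendrocyte markers (1 of 10, Aspa at -0.56) had means of 6.48 to 6.59 with norepinephrine and 6.46 to 6.84 with KCl. No marker of microglia, endothelium or pericytes was at that p. On 6 arrays no marker of any list passed after adjustment, and the lowest adjusted p was 0.774 (Gfap, by limma). With KCl replicate 1 left out, an unadjusted p under 0.05 was found for 7 astrocyte, 3 oligodendrocyte precursor, 3 neuroblast, 2 mature neuron, 3 neural stem cell and 1 myelinating oligodendrocyte markers, beside 4.63% of all, and again for none of the other lists. In log2 array readings no marker is listed at 0. Of a receptor gene in such bulk RNA, fewer cells of a type and less RNA per cell cannot be told apart, and the part of cell makeup in the differences of Gabbr1, Gabbr2 and Gria4 was not tested.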

How the data were processed

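Gene expression was measured in 6 samples, 3 per treatment, each on 1 array, with cDNA made by the Applause WT-Amp ST kit per the labels' protocols. The authors deposited log2 expression values per probe set. Partek and RMA (background correction, quantile normalization, then 1 value per probe set) are named in the submitters' processing notes, and their versions and settings were not given. Quantile normalization leaves arrays with near equal spreads. Over the named probe sets the deposited arrays had interquartile ranges of 1.48 (KCl replicate 1) to 2.39 (KCl replicate 2) and medians of 7.03 to 7.28. Whether and how that step was applied to these values is therefore unclear. Without scanner files there was no detection call, and dim probe sets were kept.

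Of 34760 probe sets, 21640 had 1 gene symbol in the platform table, 1321 had several and 11799 had none. Of 47 receptor genes in the class lists, 41 were measured under 1 symbol, and the rest are not analysed here. The treatments were compared with limma (version 3.58.1, under R 4.3.3; lmFit and eBayes, no covariate, two-sided) on all 21640, adjusted by Benjamini-Hochberg and called at an adjusted p under 0.05. The fit was tested on simulated data with independent noise of the same spread on every array. That test does not cover an array like KCl replicate 1. Values in every sample were given for receptor genes at an unadjusted p under 0.05, those with groups apart and a difference of at least 0.5, the 3 brightest of each large class and both GABA-B genes; those of Grin2a, Grin3a and Grm8 were added after their values were seen. Of each pathway list up to 4 genes, and of each marker list up to 2, were named by smallest p under 0.05; Cd24a was added later. Members, lists and rules were chosen with earlier results of these data known. Promoters came from RefSeq (GRCm38.p6), and coordinates printed are those of these promoters, not of probe sets, since no source used here states the platform's build.

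Alternatives were a quantile normalization of the deposited values, centring, a filter at the 30th percentile and trend and robust moderation. Others were the replicate number as a block, the mean of a gene's probe sets and leaving out each array. The default method of array weights did not converge, and the gene-by-gene method was used in their place, chosen after the data were seen.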

Additional observations from a re-analysis of the deposited data

How the results depend on the processing

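Of the 41 receptor genes, 24 kept their direction in every alternative run on them, which was all 13 for 15 genes and 12 for the 9 that the filter at the 30th percentile left out. Gabbr1 had an unadjusted p under 0.05 in 13 of 13. Gabbr2 had it in 11, but not without norepinephrine replicate 2 or KCl replicate 3, and Gria4 in 9, but not after centring or without norepinephrine replicate 1 or 3 or KCl replicate 2. Precision was limited by 6 arrays, and without detection calls signal over background is unknown.

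Gene-by-gene array weights ran from 0.158 for KCl replicate 1 to 6.76 for KCl replicate 3. The fit with them called 1454 of the 21640 named probe sets and 3 of the 41 receptor genes, a similar share of both. The 3 were Gabbr1 at 0.81 (limma adjusted p = 0.00518), Gabbr2 at -0.70 (adjusted p = 0.00485) and Grin3a at -0.60 (adjusted p = 0.0251). In that fit 18 receptor genes had an unadjusted p under 0.05, beside 23.9% of all probe sets, and the GABA-A median was -0.020. It leans on 1 KCl array. The default weights reached 673 for that array without converging and were not used.

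With the replicate block 6 receptor genes had an unadjusted p under 0.05, beside 6.64% of all. Equal numbers are not known to mark a shared source. The deviations of same-numbered arrays correlated at 0.30, 0.63 and 0.085, and norepinephrine replicate 3 correlated better with another number. The filter at the 30th percentile left 26 receptor genes and a GABA-A median of -0.0040. Of the 26 genes 3 had groups apart, beside 7.91% of all named probe sets at the 30th to 70th percentile and 12.0% above the 70th.

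Leaving out each array in turn, from 0 to 4 of the 21640 named probe sets were called. From 2 to 8 receptor genes had an unadjusted p under 0.05, beside 1.46% to 16.3% of all named probe sets. Groups were apart in 6 to 17 receptor genes, where fewer arrays make separation easier. The share of all named probe sets with groups apart was taken only without KCl replicate 1 (16.2%), so the other counts have no background. The ionotropic glutamate median ranged from -0.032 to 0.062 and the GABA-A median from -0.26 to 0.039. The genes that changed sign ranged from -0.38 to 0.43 (Gria2), -0.57 to 0.46 (Gria3), -0.24 to 0.16 (Grin2d), -0.034 to 0.21 (Grik1), -0.11 to 0.17 (Grik4), -0.065 to 0.10 (Grid1), -0.29 to 0.050 (Grm5), -0.19 to 0.38 (Grm3), -0.26 to 0.057 (Grm4), -0.23 to 0.089 (Gabra5), -0.33 to 0.0025 (Gabra6), -0.12 to 0.30 (Gabrb2), -0.64 to 0.47 (Gabrg1), -0.28 to 0.11 (Gabrd), -0.43 to 0.021 (Gabrp), -0.34 to 0.011 (Gabrr1) and -0.41 to 0.15 (Gabrr2). Signs also turned after centring for Gria2 (0.029) and Gabrg1 (0.034), and after quantile normalization for Gria3 (-0.14), Grin2d (0.018), Grm3 (-0.021), Gabra5 (0.074) and Gabrr1 (0.044). With array weights they turned for Gria2 (0.017), Gria3 (-0.45), Grin2d (0.063), Grik1 (-0.034), Grid1 (-0.0028), Grm3 (-0.24), Gabra5 (0.25) and Gabrd (0.00024). The cause was not tested.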
